A study of Mus musculus with 24 samples.

Results

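The nuclear-encoded genes of oxidative phosphorylation were followed in whole hippocampi and in hippocampal microglia of aged mice. Members were taken by symbol, as the listed genes whose names start with Ndufa, Ndufb, Ndufc, Ndufs, Ndufv, Uqcr, Cox4 to Cox8 or Atp5, together with Sdha, Sdhb, Sdhc, Sdhd and Cyc1, and without the Ndufaf assembly factors. This rule gave 86 of 24411 listed genes. Of these, 36 belong to complex I, 4 to complex II, 9 to complex III, 20 to complex IV and 15 to complex V. The other 2, Atp5s and Atp5sl, share the symbol stem but are not counted here with the subunits of a complex.

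Male C57BL/6 mice of 20 months received 8 intravenous injections of 100 μl over 24 days. Whole hippocampi were sequenced from mice given the young platelet fraction (n = 6), young plasma, as the young blood plasma preparation is called here (n = 6), or saline (n = 5); both preparations were made from the blood of young mice. In a separate experiment, microglia were captured on CD11b beads after tissue dissociation and myelin depletion, from hippocampi of mice given recombinant mouse PF4, a chemokine that platelets release, at 5 μg/ml (n = 4) or saline (n = 3). No transgene or deletion is named for any group.

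The respiratory chain sits in the inner mitochondrial membrane. Complex I takes electrons from NADH and complex II takes them from succinate, complex III hands them to cytochrome c, and complex IV passes them to oxygen. Complexes I, III and IV pump protons as they work, and complex V, the ATP synthase, uses the returning protons to make ATP, on which neurons depend for ion pumping and synaptic transmission. Most subunits are encoded in the nucleus and imported; the subunits encoded by mitochondrial DNA were not analysed here.

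The values are normalized counts, the read count of a gene scaled by the size factor of its library. Libraries held 6763608 to 7438930 counted reads in young platelet fraction hippocampi, 6586357 to 7739868 in young plasma hippocampi and 6140510 to 10522699 in saline hippocampi. Microglia libraries were deeper, at 25401175 to 31649835 reads with PF4 and 19855188 to 36342162 with saline. In bulk samples, fewer cells of a type and less RNA per cell cannot be told apart. On the first principal component of all genes, which held 25.1% of the variance, 5 hippocampal libraries stood apart: young platelet fraction 2, young plasma 2 and 3, and saline 2 and 3. Their mouse labels, 7148, 7147, 7150, 7146 and 7152, lie close together in a numbering that mostly cycles through the 3 treatments, and the library labelled 7151, young platelet fraction 3, did not stand apart with them. The labels 7594, 7595 and 7596, of young plasma 6, young platelet fraction 6 and saline 5, lie apart from the others, which run from 7143 to 7159. The labels do not say what the numbers mark. In microglia, PF4 2, PF4 4 and saline 2 held 501960, 345809 and 197501 normalized counts of Ttr, the transthyretin transcript of the choroid plexus, against 641 to 884 in the 4 other libraries. All 11 microglia markers were detected in all 7 microglia libraries, with summed levels of 1017952 to 1386805 normalized counts.

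Most members have short transcripts. The principal annotated transcript ran from 360 to 3171 bases with a median of 772.5, against a median of 2977.5 over the genes tested in the hippocampus, and 54 members had 1000 bases or less, 12 had up to 1500 and 20 had more than 1500. The long ones include the catalytic and core subunits Atp5a1, Atp5b, Sdha, Uqcrc1 and Ndufs1. Several members have processed copies in the genome. Sharing was counted over the 50-base stretches of each member's longest annotated transcript, which can differ from the principal one. By this count 50 members shared 0 with any other annotated gene. Another 14 shared more than 10%, so that their reads could be split between genes. In their longest transcripts Uqcrq, Ndufa4 and Atp5j2 shared 0, whereas Ndufa12 shared 17.2% with Gm15920 and Atp5g2 shared 14.8% with 3 genes. The exons of another annotated gene were overlapped by 30 members.

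Promoters of these genes are known for sites of NRF1, of ETS factors such as GABP, and of YY1, so the windows of 250 bases before to 50 bases after the RefSeq start in GRCm38.p6 were searched on both strands for an NRF1 motif (GCGCA, any base, then GCGC), an ETS motif (CCGGAAG) and a YY1 motif (AAGATGGCG). Windows were at hand for 70 members. The NRF1 letters stood in 16 of them (22.9%), against 4.78% of all windows and 10.1% of the windows of genes tested in the hippocampus. The ETS letters stood in 15 (21.4%, against 9.12% and 16.9%), the YY1 letters in 7 (10%, against 1.49% and 3.09%), and 33 windows held at least 1 of the 3. Shown here, motif in capitals with 10 bases on either side, are the matches of Atp5g2 and Atp5j2, whose levels are described next, and of Sdha, a member without a call whose window holds 3 matches. The Atp5g2 match begins 42 bases before the start and reads as the NRF1 motif on both strands (chr15:102671070-102671099, minus strand). The Atp5j2 match is a YY1 motif 23 bases after the start (chr5:145191500-145191528, minus strand). The Sdha matches are NRF1 motifs that begin 98, 55 and 10 bases before the start (chr13:74350319-74350348, chr13:74350276-74350305 and chr13:74350231-74350260, minus strand). The windows of Ndufa12 and Ndufa4 held none of the 3 strings of letters.
Atp5g2: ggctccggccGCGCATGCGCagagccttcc
Atp5j2: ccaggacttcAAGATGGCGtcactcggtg
Sdha 1: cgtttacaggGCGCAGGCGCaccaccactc
Sdha 2: ggggcgtgttGCGCAGGCGCagaatcttcc
Sdha 3: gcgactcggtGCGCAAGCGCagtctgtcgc

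The first comparison asked whether the young platelet fraction shifted these genes in the aged hippocampus. With the treatment 5 members rose, 0 fell, and the increases were small, between 1.18- and 1.25-fold. They were Ndufa12 of complex I, Uqcrq of complex III, Ndufa4 of complex IV, and Atp5g2 and Atp5j2 of complex V. No member of complex II passed the threshold. Of 86 members, 83 passed the filter of a normalized count of 10 in at least 5 libraries, and the 5 are 6.02% of these, against 2.41% of all 13603 genes tested that rose at an unadjusted P of 0.05 by limma; 0 members fell, against 1.46% of all genes. Over all genes 328 rose and 199 fell, and with TMM scaling 279 and 257. After Benjamini-Hochberg adjustment by limma over all genes, 0 members and 0 genes passed, and the adjusted p of the 5 was 0.998 each. With edgeR and DESeq2 on the recovered reads, 5 and 7 members rose at the unadjusted threshold, 0 passed adjustment in either, and DESeq2 passed 11 genes of all. Of the 83 members, 73 had a log2 fold change above 0, and their median was 0.16, against 0.00 over all genes tested.

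Ndufa12 is an accessory subunit of complex I (chromosome 10, 94198720 to 94221443 in GRCm38). Its normalized count was 731 at the lowest, 813 at the median and 988 at the highest in young platelet fraction hippocampi, against 675, 644, 622, 704 and 827 in saline hippocampi. In 3 of 6 treated libraries the value lay above all saline libraries, and the groups overlapped through saline 5. The means were 835 ± 92.4 with the young platelet fraction and 694 ± 80.5 with saline (SD, n = 6 and 5 for all hippocampal means against saline that follow). The log2 fold change was 0.27 ± 0.098 (SE, limma P = 0.0175, two-sided exact permutation P = 0.0238).

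Ndufa4 is a small subunit now counted with complex IV (chromosome 6, 11900292 to 11907497). It had 969, 1169 and 1440 normalized counts at the lowest, median and highest in young platelet fraction hippocampi, against 911, 983, 901, 1030 and 1063 in saline hippocampi. In 4 of 6 treated libraries the value was above every saline library, and young platelet fraction 1 and 2 lay within the saline range. The means were 1170 ± 177 with the young platelet fraction and 978 ± 71.4 with saline, with a log2 fold change of 0.25 ± 0.104 (SE, limma P = 0.0319; exact permutation P = 0.0455).

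Uqcrq is a small accessory subunit of complex III (chromosome 11, 53427922 to 53430831). Its normalized counts were 843, 1122 and 1330 at the lowest, median and highest with the young platelet fraction, against 938, 853, 802, 949 and 1009 with saline. Again 4 of 6 treated libraries exceeded all saline libraries. The means were 1107 ± 190 with the young platelet fraction and 910 ± 82.2 with saline, and the log2 fold change was 0.27 ± 0.119 (SE, limma P = 0.0410), while the exact permutation test gave P = 0.0758.

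In complex V, Atp5g2 encodes subunit c, which forms the ring turned by protons (chromosome 15, 102662864 to 102672352). It had 346, 417 and 509 normalized counts at the lowest, median and highest with the young platelet fraction, against 345, 347, 350, 318 and 398 with saline, and 4 of 6 treated libraries lay above all saline libraries. Its means were 419 ± 56.0 with the young platelet fraction and 352 ± 29.0 with saline, a log2 fold change of 0.24 ± 0.105 (SE, limma P = 0.0362; exact permutation P = 0.0390). Atp5j2 encodes subunit f of the membrane part (chromosome 5, 145183698 to 145192062). It had 371, 533 and 727 normalized counts at the lowest, median and highest with the young platelet fraction, against 437, 418, 359, 458 and 429 with saline. Its means were 534 ± 123 with the young platelet fraction and 420 ± 37.2 with saline, with a log2 fold change of 0.32 ± 0.146 (SE, limma P = 0.0483; exact permutation P = 0.0758).

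**Figure D1:**
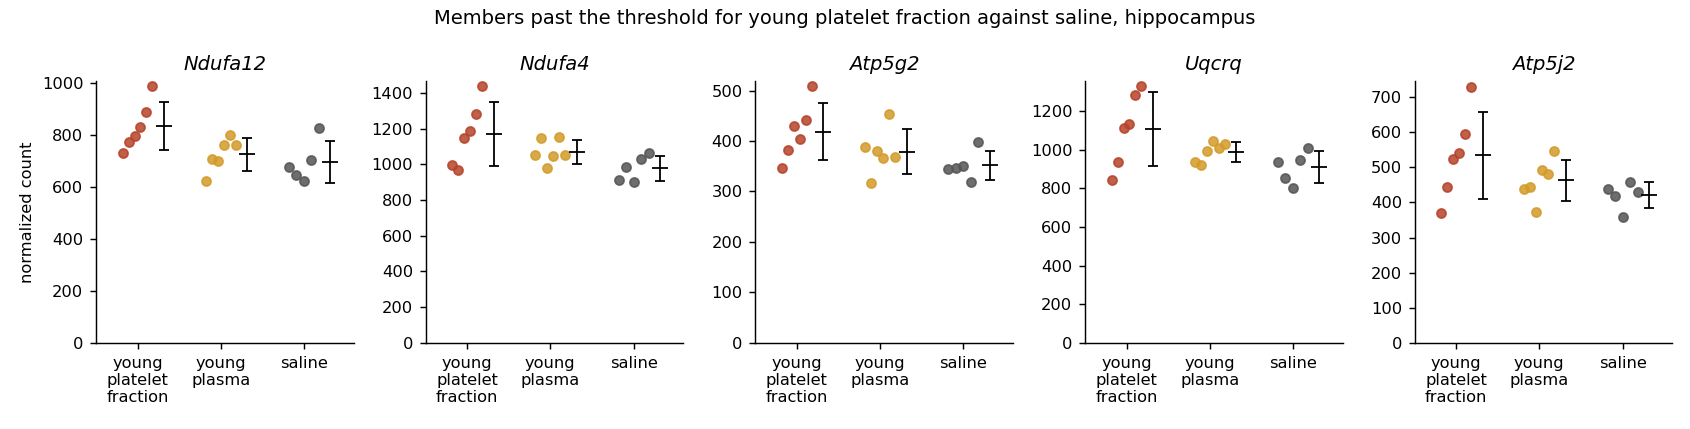
Normalized count of Ndufa12, Ndufa4, Uqcrq, Atp5g2 and Atp5j2 in each hippocampal library given the young platelet fraction (n = 6), young plasma (n = 6) or saline (n = 5); points are libraries and bars are the mean ± SD. In each panel 3 or 4 of the 6 young platelet fraction libraries lie above all saline libraries, and the others lie within or near the saline range.

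No member separated the groups completely: in 0 of 83 did every young platelet fraction library lie above every saline library (0.14% of all genes), and in 0 did every one lie below (0.118%). The call of a member depended on which libraries were counted. Leaving out young platelet fraction 1, the library with the lowest member levels, gave 33 of 83 members past the threshold, none of complex II. Of all genes, 529 of 13528 rose in that fit. Of the 33, 26 were of 1000 bases or less, as were 51 of the 83 members tested with all libraries. Leaving out young platelet fraction 2 gave 10 members (439 of 13527 genes rose), and leaving out saline 5 gave 8 (337 of 13540). With saline 1 or saline 4 left out 3 members passed (368 of 13536 and 346 of 13514 genes rose). With saline 2 or young platelet fraction 4 left out it was 2 (249 of 13529 and 220 of 13517). With saline 3, young platelet fraction 5 or young platelet fraction 6 left out it was 1 (246 of 13540, 217 of 13519 and 262 of 13519). Ndufa12 passed in all 11 of these fits, at limma P between 0.0046 and 0.0474. Without the 5 libraries that stood apart 237 of 13353 genes rose. Among the 82 members only Ndufa4 passed, and Ndufa12, with a log2 fold change of 0.20, did not. With runs of neighbouring mouse labels as a block, 211 of 13603 genes rose. Of the 83 members Ndufa12 (log2 fold change 0.25) and Ndufa4 (0.22) passed and Uqcrq, Atp5g2 and Atp5j2 did not.

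The fold changes were also read by complex. In complex IV, 16 of 17 tested members had a log2 fold change above 0, with a median of 0.22. In complex V it was 14 of 15 with a median of 0.19, in complex I 34 of 36 with a median of 0.13, and in complex III 8 of 9 with a median of 0.12. Complex II, which joins the chain to the citric acid cycle, had 1 of 4 above 0 and a median of -0.01. Differences between complexes were not tested, and transcript length was not held equal between them. Sdha and Sdhc of complex II are among the members of more than 1500 bases, whose median was 0.01, against 0.19 for members of 1000 bases or less.

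**Figure D2:**
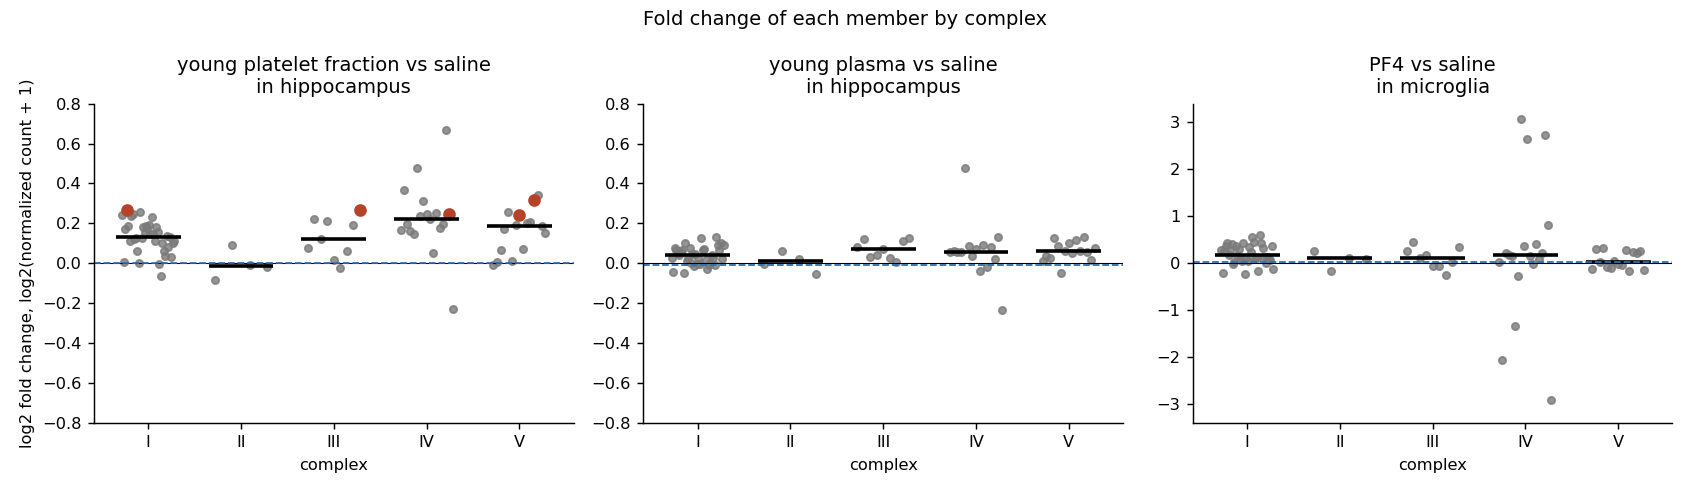
Log2 fold change of each tested member, by complex, for the young platelet fraction against saline, the young blood plasma preparation against saline and PF4 against saline in microglia; black bars are medians, red points passed the threshold, and the dashed blue line is the median of all genes tested. Members of complexes I, III, IV and V lie mostly above 0 with the young platelet fraction (medians 0.12 to 0.22), members of complex II lie around 0 (median -0.01), and microglial values are the most spread.

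A fixed set of 24 subunits, made up of catalytic and other well-known subunits of the complexes, had small differences. Over these 24 the log2 fold changes ran from -0.08 to 0.26 with a median of 0.07, and none passed the threshold. Atp5b, the catalytic β subunit of the ATP synthase, averaged 18707 ± 502 normalized counts with the young platelet fraction and 18660 ± 1486 with saline (log2 fold change 0.01). Atp5a1, its α partner, had a log2 fold change of -0.01, and the core subunits Uqcrc1 and Uqcrc2 of complex III had 0.01 and -0.02. In complex I, the iron-sulfur subunit Ndufs1 had a log2 fold change of -0.01 and the NADH-binding subunit Ndufv1 had 0.03.

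Among the complexes, complex II had the median nearest 0, at -0.01 over 4 members. Sdha, its flavoprotein and the subunit that oxidizes succinate, had 8335, 9623 and 10096 normalized counts at the lowest, median and highest with the young platelet fraction, against 9937, 10190, 10257, 9596 and 10287 with saline. Its means were 9495 ± 607 with the young platelet fraction and 10053 ± 290 with saline (log2 fold change -0.08 ± 0.062 SE, limma P = 0.195; exact permutation P = 0.0649). The lowest value was in young platelet fraction 6, where the 5 called members had their highest values. Sdhb, the iron-sulfur subunit, had a log2 fold change of 0.09, and the membrane anchors Sdhc and Sdhd had -0.01 and -0.02.

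The largest values in this set were those of Atp5e, Ndufab1 and Cox5a, and these did not pass the threshold. Cox5a, a nuclear-encoded subunit on the matrix face of complex IV, averaged 1174 ± 177 normalized counts with the young platelet fraction and 1015 ± 38.8 with saline, and 5 of 6 treated libraries lay above all saline libraries (log2 fold change 0.20, limma P = 0.0583; exact permutation P = 0.0325). Ndufab1, the mitochondrial acyl carrier protein that is also an accessory subunit of complex I, had a log2 fold change of 0.26 (exact permutation P = 0.115), and Atp5e, in the central stalk of the ATP synthase, had 0.26 (exact permutation P = 0.0996). The subunits Cox4i1, Cox5b and Atp5d had 0.17, 0.16 and 0.17. In the same set, Ndufv2, Ndufs3, Ndufs7, Ndufs8, Uqcrfs1, Cyc1 and Atp5c1 had 0.10, 0.10, 0.08, 0.13, 0.06, 0.08 and 0.07.

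Transcript length ran with these differences, both among the members and among all genes. Members of 1000 bases or less had a median log2 fold change of 0.19, and 50 of 51 were above 0, whereas the 20 members of more than 1500 bases had a median of 0.01 with 12 above 0. The 787 other tested genes of 1000 bases or less had a median of 0.11, and the 11412 others of more than 1500 bases had -0.01. Between 500 and 750 bases, where most short members lie, 32 members had a median of 0.19 and the 274 other genes had 0.13. The part of transcript length in the members' difference was not tested.

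**Figure D3:**
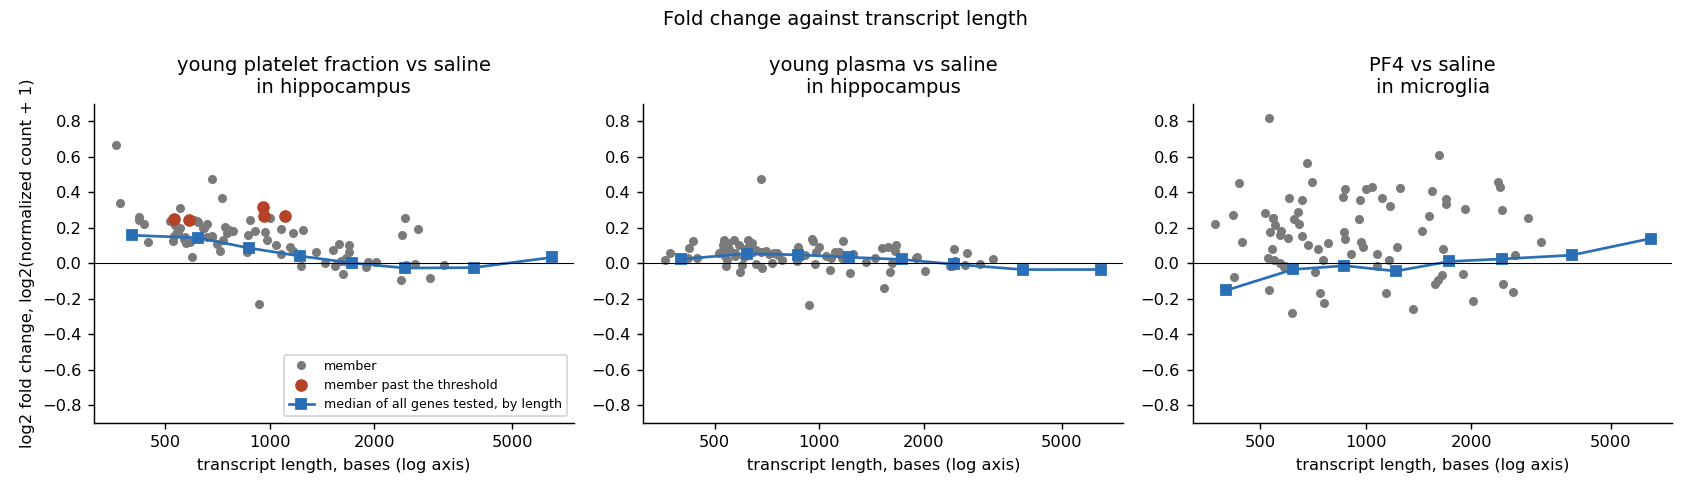
Log2 fold change of each member against the length of its principal transcript, in bases, for the 3 comparisons with saline; blue squares are the medians of all tested genes in bins of length. With the young platelet fraction, members and all genes alike lie higher at short lengths (members of 1000 bases or less, median 0.19) than beyond 1500 bases (0.01); 6 microglial members beyond 0.9 in either direction are not drawn.

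The spread between libraries was widest with the young platelet fraction. Over the 76 members with a mean of at least 100 normalized counts, the median coefficient of variation was 15.4% with the young platelet fraction, 7.9% with young plasma and 8.5% with saline. Summed over all members, young platelet fraction hippocampi held 125125 normalized counts at the lowest, 144563 at the median and 155066 at the highest, against 136566, 132828, 133807, 129099 and 143784 in saline hippocampi. The treated group thus held both the lowest and the highest library. In every group the highest sum was in a library labelled 7594 to 7596: young platelet fraction 6 (155066), saline 5 (143784) and young plasma 6 (144360). The part of this label run in the members' values was not tested. The sums over members of 1000 bases or less ran from 41298 to 62931 with the young platelet fraction and from 42208 to 50557 with saline, and those over members of more than 1500 bases from 67826 to 75264 with the young platelet fraction and from 67614 to 75389 with saline. Relative to the mean of the hippocampal libraries, the median member was at -0.20 on the log2 scale in young platelet fraction 1 and at 0.36 in young platelet fraction 6.

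**Figure D4:**
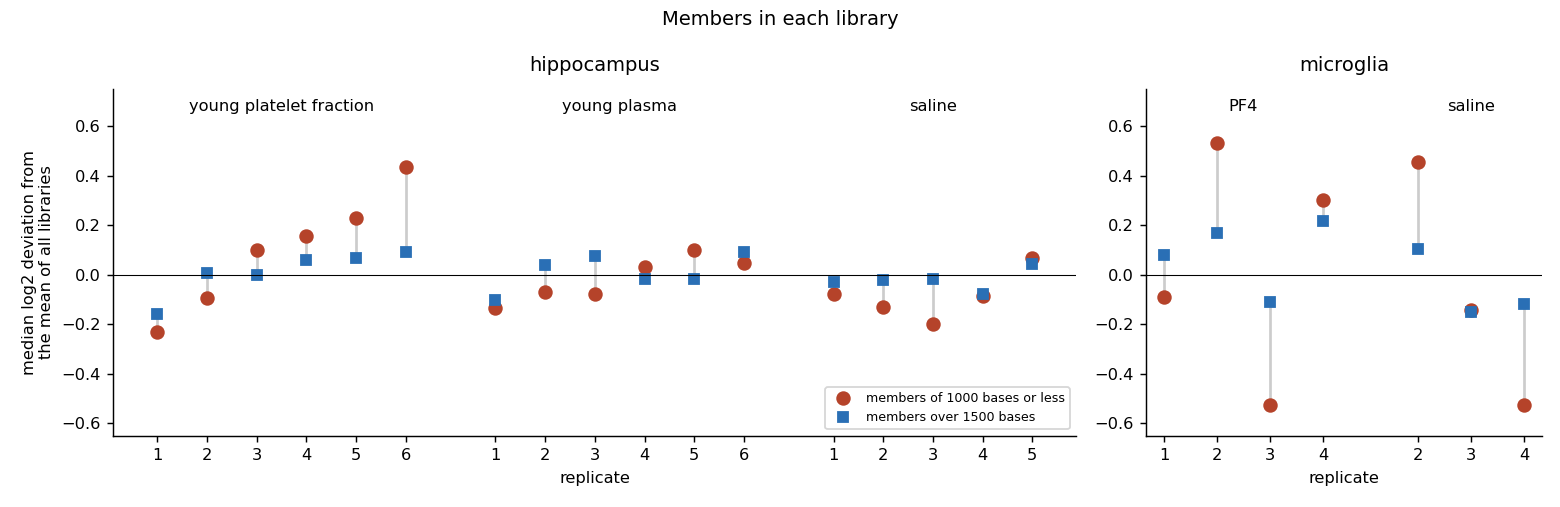
Median log2 deviation of members of 1000 bases or less (circles) and of more than 1500 bases (squares), in each library by group. Deviations are from the mean of the hippocampal libraries in the hippocampus panel and of the microglia libraries in the microglia panel. Among young platelet fraction libraries the short members range from -0.23 to 0.44, and the long members from -0.16 to 0.09.

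Markers of some cell types also differed in level between these groups, and values for the other cell types with marker lists are not given here. All 8 oligodendrocyte markers rose with the young platelet fraction, with a median log2 fold change of 0.60, and their summed level was 63162 to 101709 normalized counts with the young platelet fraction against 39868 to 78404 with saline. The 8 choroid plexus markers had a median log2 fold change of 0.34, with 0 past the threshold and sums of 6415 to 95542 against 3393 to 58254, and 2 of 6 ependymal markers rose (sums 79.5 to 466 against 109 to 176). Of 6 dentate granule cell markers 2 fell (sums 2411 to 3629 against 2345 to 6586). The sums of all these lists overlapped between the groups. Over all genes tested 2.41% rose and 1.46% fell. None of the oligodendrocyte and choroid plexus markers was at 0 in any of these libraries. The part of these cell types in the members' values was not tested.

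Neighbouring pathways were read from lists. Of 14 complex I assembly factors, 34 assembly factors of complexes II to V, 16 genes of electron carriage and metabolite exchange, 17 of the citric acid cycle and 17 of glycolysis, 0 rose and 0 fell, with median log2 fold changes of 0.02, 0.07, 0.04, -0.04 and -0.02. Among 77 mitochondrial ribosomal protein genes, Mrpl42 and Mrpl54 rose and the median was 0.07, and among 80 cytosolic ribosomal protein genes, Rps13 rose and the median was 0.14. These 2 of 77 and 1 of 80 stand beside the 2.41% of all genes that rose. Of 14 regulators of mitochondrial biogenesis 11 had values below 0, with a median of -0.13. In that list Ppargc1b, a coactivator of respiratory genes, fell to 94.9 normalized counts with the young platelet fraction, against 127 with saline (log2 fold change -0.45, adjusted p = 0.998 by limma).

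The young blood plasma preparation, from which the platelet fraction is drawn, was compared with the same saline hippocampi. No member passed the threshold. Of 81 members tested 0 rose and 0 fell, against 1.85% and 1.51% of 13594 genes at an unadjusted P of 0.05 by limma, and edgeR and DESeq2 also gave 0 members. The values lay above 0 for 64 members, with a median log2 fold change of 0.05 against -0.01 over all genes. By complex, the medians were 0.04 for I, 0.01 for II, 0.07 for III, 0.06 for IV and 0.06 for V, and the same 24 subunits lay between -0.05 and 0.13.

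The member of smallest P was Cox6a2, the form of subunit 6a best known from heart and skeletal muscle. It was read at 20.0, 34.2 and 42.7 normalized counts at the lowest, median and highest with young plasma, against 31.7, 29.8, 15.9, 21.1 and 16.9 with saline (means 32.4 ± 9.10 with young plasma and 23.1 ± 7.30 with saline; log2 fold change 0.48 ± 0.263 SE, exact permutation P = 0.102). Of 6 plasma libraries, 4 lay above all saline libraries. In other complexes the members of smallest P were Ndufb7, Sdhb, Uqcrq and Atp5d, with log2 fold changes of 0.13, 0.06, 0.12 and 0.13 and exact permutation P of 0.0887, 0.351, 0.0844 and 0.117. Without saline 1, Atp5d and Cox6a2 passed the threshold (2 of 81 members, against 321 of 13537 genes that rose). Without young plasma 3, Cox6a2 and Ndufb7 did (2 of 81, against 233 of 13519). Without the 5 libraries that stood apart only Cox6a2 did (1 of 80, against 169 of 13185), with a log2 fold change of 0.72.

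The 5 members that rose with the young platelet fraction had smaller log2 fold changes with young plasma. They were picked by their values with the young platelet fraction, so this contrast cannot show that the treatments differ. Ndufa4 averaged 1066 ± 67.1 normalized counts with young plasma and 973 ± 71.4 with saline (log2 fold change 0.13). Ndufa12 averaged 722 ± 62.5 with young plasma and 691 ± 80.2 with saline (0.07). The log2 fold changes of Uqcrq, Atp5j2 and Atp5g2 were 0.12, 0.13 and 0.10. Both treatments were set against the same saline libraries, so these values are not independent. The 8 oligodendrocyte markers all rose with young plasma too, by a median of 0.52, and the members' median was 0.05. The part of oligodendrocyte transcripts in the members' values was not tested here either.

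Whether the treatments differed was asked directly, with the plasma libraries put on the scale of the platelet table. Of 83 members 1 rose and 0 fell with the young platelet fraction relative to young plasma, against 0.867% and 1.03% of 13730 genes. Over all genes 119 rose and 142 fell, and with scaling to library totals 94 and 180. This was Ndufa12, with means of 835 ± 92.4 with the young platelet fraction and 725 ± 62.8 with young plasma (n = 6 each; log2 fold change 0.20 ± 0.088 SE, limma P = 0.0383; exact permutation P = 0.0303), and 3 of 6 young platelet fraction libraries lay above all plasma libraries. Ndufa12 lost the threshold in 6 of 12 fits with a library left out. The median over the members was 0.09, against 0.01 over all genes. Leaving out young platelet fraction 1 gave 12 of 83 members, against 142 of 13676 genes that rose. Leaving out young platelet fraction 4, 5 or 6 or young plasma 1 or 2 gave 0, as did leaving out the 5 libraries that stood apart. In these fits that gave 0, between 97 and 173 genes rose. In the other complexes the members of smallest P were Sdha, Uqcrq, Cox7c and Atp5k, with exact permutation P of 0.175, 0.212, 0.134 and 0.199.

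Several subunits of complex IV and V come in forms from different genes, and in the saline hippocampus the common form prevailed. Per kilobase of transcript, Cox8a stood at 6156 normalized counts, Cox4i1 at 5500 and Cox6a1 at 4610, whereas the muscle forms Cox8b, Cox6a2 and Cox7a1 stood at 51.6, 34.1 and 13.4, Cox6b2, known from testis, at 14.9, and Cox4i2, known from lung, at 12.1. The highest level of all members was that of Atp5b at 9739, followed by Cox8a. Cox7a1, Cox7b2 and Cox8c did not reach the filter in hippocampi given the young platelet fraction or saline, and Cox8c was at 0 in all of them. Cox4i2 and Cox6b2 also fell short of it in the plasma comparison. Among the common forms of complex IV, the log2 fold changes with the young platelet fraction were 0.15 for Cox6a1 and 0.24 for Cox6b1. Cox7a2, Cox7b and Cox8a had 0.22, 0.25 and 0.20, and Cox7a2l, a paralog of Cox7a2, had 0.05. The other genes for subunit c, Atp5g1 and Atp5g3, had 0.19 and 0.07. None of these passed the threshold.

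In microglia, PF4 was compared with saline at an unadjusted P of 0.01. Of 84 members tested, 0 rose and 0 fell, against 0.221% and 0.168% of 11320 genes by limma, and edgeR and DESeq2 also gave 0 members. At an unadjusted P of 0.05 limma called 391 genes. Cox7b2 and Cox8c were at 0 in all 7 libraries. Of the 84 members, 62 had log2 fold changes above 0, with a median of 0.16, against 0.03 over all genes. The spread was wide. The median coefficient of variation was 34.7% with PF4 and 32.2% with saline.

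In complex V the member of smallest P was Atp5b, with means of 16791 ± 1891 with PF4 and 13837 ± 3577 with saline (SD, n = 4 and 3). Its log2 fold change was 0.31 (two-sided exact permutation P = 0.257, where 0.0286 is the smallest that 4 against 3 can give). In complexes II and III these were Sdhb and Uqcrfs1, the Rieske iron-sulfur protein, with log2 fold changes of -0.17 and -0.26 (exact permutation P = 0.400 and 0.171), and in complex IV it was Cox6b2 (3.07, exact permutation P = 0.257).

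Microglial member levels moved with Ttr. Summed over all members, PF4 libraries held 172413, 250156, 159615 and 220792 normalized counts, against 207967, 180231 and 164547 in saline libraries. The highest in each group were the libraries high in Ttr. The 8 choroid plexus markers summed to 686810 in PF4 2, 492468 in PF4 4 and 267248 in saline 2, and to between 914 and 1744 in the 4 other libraries. In 34 of 84 members (40.5%) all 3 libraries high in Ttr lay above the 4 others, against 5.33% of all genes, and in 0 did all 3 lie below, against 3.95%. These were 18 of 36 members of complex I, 4 of 9 of complex III, 7 of 18 of complex IV, 5 of 15 of complex V and 0 of 4 of complex II.

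Cox8b was the clearest of them. It had 1073 and 464 normalized counts in PF4 2 and PF4 4, against 58.3 in saline 2, and at most 0.8 in the 4 libraries low in Ttr. Ndufa4 had 2027 and 1455 in PF4 2 and PF4 4 and 1456 in saline 2, and 286 to 757 in the others, and Cox4i1 had 12498 to 15689 in the 3 and 9029 to 10329 in the others. Sdha overlapped, at 3523 to 8877 in libraries high in Ttr and 8425 to 10725 in the others. Cox6b2 did not follow Ttr in saline: it stood at 344 in PF4 2 and 184 in PF4 4, against 1.2 in saline 2. The hypoxia-induced Ndufa4l2 was highest in saline 2, at 221.

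**Figure D5:**
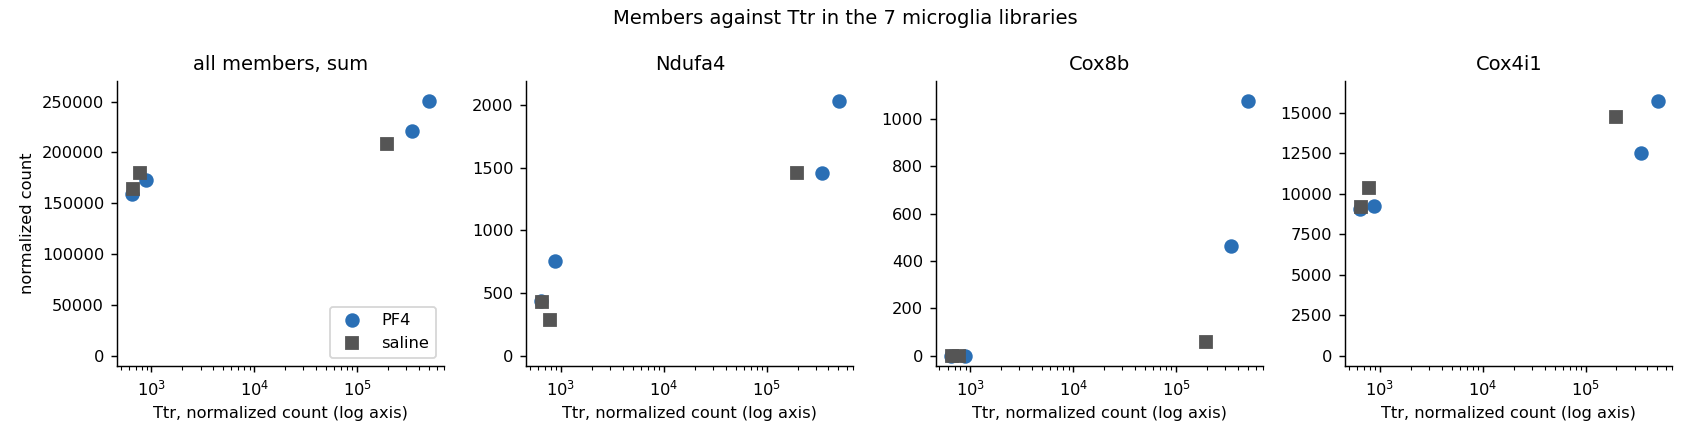
Normalized count summed over all members, and of Ndufa4, Cox8b and Cox4i1, against the normalized count of Ttr (log axis) in the 4 PF4 and 3 saline microglia libraries. The 3 libraries high in Ttr (PF4 2, PF4 4 and saline 2) are the highest in each panel.

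Without the 3 libraries high in Ttr, 79 members were tested in 2 PF4 and 2 saline libraries. None passed the threshold, their median log2 fold change was 0.01 with 41 above 0 and 38 below, and that of Atp5b was 0.00. Cytosolic ribosomal protein genes summed to 366019, 393576, 353603 and 378065 normalized counts with PF4, against 483857, 464135 and 378579 with saline. Within each group the libraries high in Ttr held the most, while saline 3, low in Ttr, lay above PF4 2 and PF4 4. Oligodendrocyte markers summed to 196699 in PF4 4 and to between 4149 and 34299 in the 6 others. The part of choroid plexus and oligodendrocyte transcripts in the PF4 values was not tested.

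Between tissues, hippocampus and microglia came from separately normalized tables, so levels were set side by side as RPM, the counted reads of a gene scaled to a common library total, without a test. Members made up 6341 to 8438 RPM in saline microglia and 17487 to 19277 in saline hippocampi. Of 83 members with at least 1 RPM, 57 lay lower in every microglia library than in every hippocampus, 26 overlapped and 0 lay higher, against 47.5% of 14620 genes lower and 15.2% higher by the same criterion (68.7% and 0% of the members). Members lay lower in 25 of 36 cases in complex I, 4 of 4 in II, 7 of 9 in III, 7 of 17 in IV and 12 of 15 in V, and differences between complexes were not tested. Several overlaps came from saline microglia 2, the saline library high in Ttr. In it Cox4i1 had 598 RPM and Cox7a2 118, against 398 and 354 RPM and 70.5 and 50.2 RPM in saline microglia 3 and 4. Without that library 71 of 83 members lay lower (85.5%, against 56.1% of all genes), 11 overlapped and 1 lay higher, and 11 of 17 of complex IV and 13 of 15 of complex V lay lower. The ratios differed widely between subunits. Ndufv2 averaged 24.2 RPM in microglia and 217 in hippocampus, and Ndufb9 averaged 41.1 in microglia and 270 in hippocampus. Atp5b averaged 540 RPM in microglia and 2516 in hippocampus, and Sdha 296 in microglia and 1357 in hippocampus. By contrast Cox6b1 averaged 207 RPM in microglia and 225 in hippocampus, Cox7a2l 153 in microglia and 135 in hippocampus, and Atp5g2 55.0 in microglia and 47.5 in hippocampus.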

How the data were processed

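Counts per gene of whole hippocampi and CD11b-captured microglia were analysed, 1 column per library in 3 tables. STAR (mm10), RSEM and DESeq2 were used upstream, and the signal that the authors deposited is a normalized count, that is, RSEM counts over DESeq2 size factors. Columns with the authors' own fold changes and p-values were not used. The methods section gives modified Smart-Seq2 as the library protocol and the labels a strand-specific poly(A) kit, and which was used is not settled. Values were whole multiples of 1 read (tolerance 0.01) in 100% of cases.

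In limma 3.58.1 (R 4.3.3), log2(normalized count + 1) was modelled with a variance trend and 2 groups per fit, over all genes with a normalized count of at least 10 in 5 hippocampal or 3 microglia libraries, two-sided. Thresholds were an unadjusted P of 0.05 in hippocampus and 0.01 in microglia, with Benjamini-Hochberg adjustment beside them. A fold change on this scale understates changes of low genes. Where nothing else is said, P is unadjusted. Single genes were also compared by exact permutation tests over libraries. The members, the lists and the rule for named genes were chosen with earlier results of these data known. The rule names members past the threshold, the member of smallest P in each complex, a fixed set of 24 catalytic and other subunits and the paralogs. A named member is not reported here. The study counts its libraries in mice.

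Coordinates and transcript lengths are from the GENCODE annotation of GRCm38, and promoter windows and the sequences printed are from RefSeq. The fits were tested on simulated data. Alternatives were other pseudocounts (0.5, 5), other filters (none, 50), other scalings (TMM, library totals), count models on the recovered reads (edgeR 4.0.16, DESeq2 1.42.0), each library left out, all hippocampal groups in 1 fit and a replicate block. Leaving out 5 hippocampal libraries or 3 microglia libraries, taking runs of neighbouring mouse labels as a block (in rising order, with a new run where a treatment came again) and leaving saline microglia 2 out of the tissue comparison were chosen after seeing the data.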

Additional observations from a re-analysis of the deposited data

Results flagged for a closer look

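Among 88 groups of values, 7 had a library far from the rest of its group (7.95%; chance gives about 1 in 20), and no explanation was weighed. Summed over all members, young plasma 1 was the lowest of its group, at 128083 normalized counts with the next at 138257. The sum of complex I was highest in saline hippocampus 5, at 39725, and that of complex V lowest in saline hippocampus 4, at 40835. Among young platelet fraction hippocampi, Atp5b was highest in library 2, at 19657 normalized counts. Library 6 of that group held the highest Atp5k, which encodes subunit e of the ATP synthase, at 299 with the next at 178, and the lowest Sdha, at 8335 with the next at 9480. Cox6b2 was highest in young plasma 2, at 23.3 with the next at 12.1.

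Ndufa12 was the 1 member of 83 past the unadjusted threshold between the treatments, which is 1.2% of the members against 0.867% of all genes. Its log2 fold change of the young platelet fraction over young plasma was 0.20 (limma P = 0.0383, unadjusted; exact permutation P = 0.0303), with 3 of 6 young platelet fraction libraries above all young plasma libraries. It did not pass adjustment (adjusted p = 1.00 by limma), and it lost the unadjusted threshold in 6 of 12 fits with a library left out.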

How the results depend on the processing

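The members' median log2 fold change kept its sign in all settings for all 4 comparisons. For the young platelet fraction against saline, 5 of 83 members rose, against 328 of 13603 genes. With TMM scaling it was 3 (Uqcrq and Atp5j2 lost), against 279 genes. With all hippocampal groups in 1 fit it was 11, against 332 genes. It was 1 of 82 without the 5 libraries that stood apart, against 237 of 13353 genes. With runs of mouse labels as a block it was 2, against 211 genes. With a library left out it was 1 to 33, against 217 to 529 genes. For young plasma against saline, 0 of 81 members rose, against 251 of 13594 genes. This was 1 without the libraries that stood apart, against 169 of 13185 genes. With a library left out it was 0 to 2, against 168 to 321 genes. For the young platelet fraction against young plasma, 1 of 83 members rose, against 119 of 13730 genes. This was 0 without the libraries that stood apart, against 173 of 13499 genes. With a library left out it was 0 to 12, against 97 to 234 genes. The 12 came without young platelet fraction 1, where 142 of 13676 genes rose. Medians with a library left out lay between 0.09 and 0.21 (young platelet fraction against saline), 0.02 and 0.08 (young plasma), 0.05 and 0.16 (between the treatments) and 0.01 and 0.36 (PF4). In microglia, Atp5b turned to -0.0043 without the 3 libraries high in Ttr, and the cause was not tested. For the microglia replicate numbers 2, 3 and 4, deviations of the PF4 and saline libraries of the same number correlated weakly (0.14, 0.06 and 0.03). Among saline libraries, PF4 2 and PF4 4 correlated best with that of their own number, and PF4 3 with saline 4. With the replicate block 0 members passed and their median was 0.23. Over all genes, edgeR on recovered reads called 325 higher and 202 lower for the young platelet fraction, 291 and 182 for young plasma, 107 and 173 between the treatments and 19 and 15 for PF4; for PF4, DESeq2 called 139 higher and 40 lower, against 25 and 19 by limma, with 0 members among them. With runs of mouse labels as a block, limma called 211 higher and 120 lower for the young platelet fraction, 517 and 701 for young plasma and 259 and 151 between the treatments, against 328 and 199, 251 and 205, and 119 and 142 without it.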

Other observations

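With PF4, genes around the respiratory chain gave no call in microglia except 1 mitochondrial ribosomal protein gene that fell: the median log2 fold changes were -0.21 over 14 complex I assembly factors, 0.06 over 33 assembly factors of complexes II to V, 0.11 over 16 genes of electron carriage and metabolite exchange, 0.12 over 17 of the citric acid cycle, 0.10 over 16 of glycolysis, 0.27 over 13 regulators of mitochondrial biogenesis and -0.02 over 77 mitochondrial ribosomal protein genes. The 81 cytosolic ribosomal protein genes had a median of -0.26, with 73 below 0 and 0 past the threshold.

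With young plasma, the same lists had medians of -0.01, 0.01, 0.00, -0.01, 0.02, -0.09 and 0.04, and the 80 cytosolic ribosomal protein genes had 0.05. Tfam, which packages and transcribes mitochondrial DNA, fell to 161 normalized counts with young plasma, against 192 with saline (log2 fold change -0.26, adjusted p = 1.00 by limma).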
